A study of Mus musculus with 18 samples.

Results

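The proteins that gate entry into S phase were followed at the RNA level through 9 genes: the CDK inhibitors Cdkn1a, Cdkn1b, Cdkn2a, Cdkn2b, Cdkn2c and Cdkn2d and the D cyclins Ccnd1, Ccnd2 and Ccnd3. They were named by their place in the pathway, with no threshold on measured values, among the 27997 genes of the deposited expression table, and each of the 9 had 1 row there. The study compared cultured neural stem cells (NSCs) with astrocytes made from them, in 3 lines with 3 cultures per line and fate, 18 RNA sequencing libraries in all. The tdTomato line (genotype DNGR-1 +/- Tom+/-) and the EYFP line (DNGR-1 +/- EYFP+/-) came from spinal cords of mice in which Cre, expressed from the locus of DNGR-1 (also named Clec9a), had switched on the reporter. For tdTomato, the methods describe reporter-positive cells sorted out of primary neurospheres, and so after growth in culture. The hippocampal line (labelled DNGR-1+/+) came from GlastCreHuweflROSALSLEYFP mice, in which Cre is under control of the astroglial gene Glast and Huwe1, a ubiquitin ligase gene, is floxed. NSCs were kept for 4 days as adherent cultures in DMEM:F12 with N-2 supplement, EGF and bFGF at 20 ng/ml each, heparin and laminin. Astrocytes were collected after 6 days and had been moved from NSC medium to medium with 20 ng/ml BMP4 for which no mitogens are listed. The age of the mice is not given in the labels, and the methods of the study give only a range for its experiments in general. BMP4 addition and mitogen withdrawal therefore cannot be told apart, and the fates also differ in days of culture. The 3 cultures of a group came from passages 10, 11 and 12 of 1 line, so that p-values measure the spread between cultures of that line, and the line, the reporter, the region and the Huwe1 allele cannot be told apart.

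D cyclins bind the kinases Cdk4 and Cdk6 in response to mitogens, and the active kinase phosphorylates the retinoblastoma protein Rb1 and its relatives, which frees E2F factors to switch on genes of DNA replication. The INK4 inhibitors (p16INK4a from Cdkn2a, p15 from Cdkn2b, p18 from Cdkn2c and p19INK4d from Cdkn2d) bind Cdk4 and Cdk6 and keep the D cyclins off them. The CIP/KIP inhibitors (p21 from Cdkn1a and p27 from Cdkn1b) bind complexes of cyclins with CDKs, Cdk2 above all, and p21 is a classical target of p53. Neural stem cells leave the cell cycle when BMP signalling through SMAD proteins takes them to an astrocytic state, and D cyclins are known to depend on FGF and EGF signalling.

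Promoter sequence from RefSeq (GRCm38.p6) was at hand for 7 of the 9 members, matched by symbol, in 11 windows that ran from 250 bases before to 50 after an annotated start. Ccnd1 and Ccnd2 had none. In all, 10 motifs were searched on both strands in these windows and in all 32851 windows of the table. The stretches below are those of the 3 inhibitors that rose in astrocytes and of Cdkn1a, whose change differed most between the lines. Each is the 120 bases, 5′ to 3′ on the gene's strand, that end just before the first annotated start, with motif letters of either strand in capitals.
Cdkn2b, chr4:89311040-89311159: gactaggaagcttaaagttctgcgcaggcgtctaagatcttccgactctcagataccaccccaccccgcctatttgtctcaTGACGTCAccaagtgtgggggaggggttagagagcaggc
Cdkn2a, first exon of Arf, chr4:89294654-89294773: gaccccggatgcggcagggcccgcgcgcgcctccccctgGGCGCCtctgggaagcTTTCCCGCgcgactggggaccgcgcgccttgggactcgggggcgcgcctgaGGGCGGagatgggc
Cdkn2a, first exon of p16INK4a, chr4:89282193-89282312: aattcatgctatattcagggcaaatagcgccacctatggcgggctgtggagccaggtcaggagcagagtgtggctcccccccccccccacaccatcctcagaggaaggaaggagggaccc
Cdkn1b, chr6:134920281-134920400: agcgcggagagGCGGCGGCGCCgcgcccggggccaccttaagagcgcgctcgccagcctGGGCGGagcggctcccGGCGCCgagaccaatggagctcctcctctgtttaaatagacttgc
Cdkn1a, upstream start, chr17:29090856-29090975: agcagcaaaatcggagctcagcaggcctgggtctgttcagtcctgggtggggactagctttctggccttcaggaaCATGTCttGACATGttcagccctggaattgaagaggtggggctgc
Cdkn1a, main start, chr17:29093649-29093768: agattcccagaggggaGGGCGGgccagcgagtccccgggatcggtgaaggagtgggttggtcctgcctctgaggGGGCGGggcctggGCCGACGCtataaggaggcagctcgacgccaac

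The capitals of Cdkn2b spell TGACGTCA, the palindrome known as a CREB/ATF site, which 1.79% of all windows hold and which no other member's windows held. In the Arf stretch of Cdkn2a they spell GGCGCC (the core of a BMP response element, in 11.9% of all windows), TTTCCCGC (an E2F site, 1.07%) and the GC box GGGCGG (35.7%), whereas the p16INK4a stretch had no match. The Cdkn1b stretch holds GGCGCC at 2 places, of which the first overlaps GCCGNCGC (a BMP-SMAD element, 9.76%) read on the other strand, and a GC box. The upstream stretch of Cdkn1a holds GACATG, a core of the p53 half-site found in 10.1% of all windows, once on each strand with 2 bases between them, and the stretch before its main start holds a pair of GC boxes and GCCGNCGC. GGCGCC occurred in 5 of the 11 member windows, in 5 of the 7 members, and GGGCGG in 9 of the 11, in all 7 members. Both were in windows of members that rose and of members that fell. GTCTAGAC (the SMAD binding element, 0.213%) and the E2F sites TTTCGCGC (0.323%) and TTTGGCGC (0.514%) were in no member window, and CACGTG, the E-box, was in 1 window of Cdkn2c (7.15% of all). A match describes the letters of a window and is not evidence of binding.

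Expression is given as the deposited log2 values, which are normalized to library size and have the form of a regularized log, which shrinks the differences of genes with few reads. Differences are astrocyte minus NSC on that scale unless stated otherwise, with the standard error (SE) and the adjusted p of limma (Benjamini-Hochberg over all genes tested, threshold 0.05). Astrocyte markers followed the fate labels and NSC markers did so in part. Gfap, the astrocyte filament gene, had a group mean of 9.06 to 9.30 in NSCs and 15.14 to 16.40 in astrocytes. Nes, which encodes the progenitor filament nestin, differed between the fates by -3.18 in the tdTomato and -3.05 in the EYFP line, and by -0.22 (adjusted p = 0.0582, limma) in the hippocampal line. Of the astrocyte markers, 6 of the 6 tested rose, and of 8 NSC markers 4 rose and 3 fell, over all lines. On the linear scale, the NSC markers summed to 96645 to 107754 in NSC libraries. In astrocyte libraries the sums were 96012 to 112191 in the traced and 201787 to 247843 in the hippocampal lines. Vim had the highest mean of these markers over all libraries. The highest log2 value of any of them was 15.35 in NSC and 17.64 in astrocyte libraries. Mki67, a gene of cycling cells, stood between 12.75 and 13.07 in the 9 NSC libraries and between 6.42 and 7.15 in the 9 astrocyte libraries. Huwe1 had group means of 13.28 to 13.32 in NSCs and 13.06 to 13.14 in astrocytes. The median difference between libraries of 1 group was 0.0746 to 0.126 over 15448 genes.

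In all 3 lines, astrocytes had more RNA of 3 inhibitors, Cdkn2b, Cdkn2a and Cdkn1b, and less of the D cyclins and of the INK4 inhibitors Cdkn2c and Cdkn2d than NSCs. With the line as a covariate, 3 members rose and 6 fell, where 42.1% of the 15448 genes tested rose and 39.8% fell. The same 3 and 6 members rose and fell in the tdTomato line (backgrounds of 39.9% up and 39.5% down) and in the EYFP line (37.5% and 37.4%). In the hippocampal line 3 rose, 5 fell and Cdkn1a did not pass the threshold (39.2% and 38.2%). Since most genes differed between the fates, the size of each change was set against all genes: 2.43% of genes changed more than Ccnd1 and 7.57% more than Cdkn2b, whereas 49.9% changed more than Cdkn2a and 50.7% more than Cdkn1b.

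**Figure D1:**
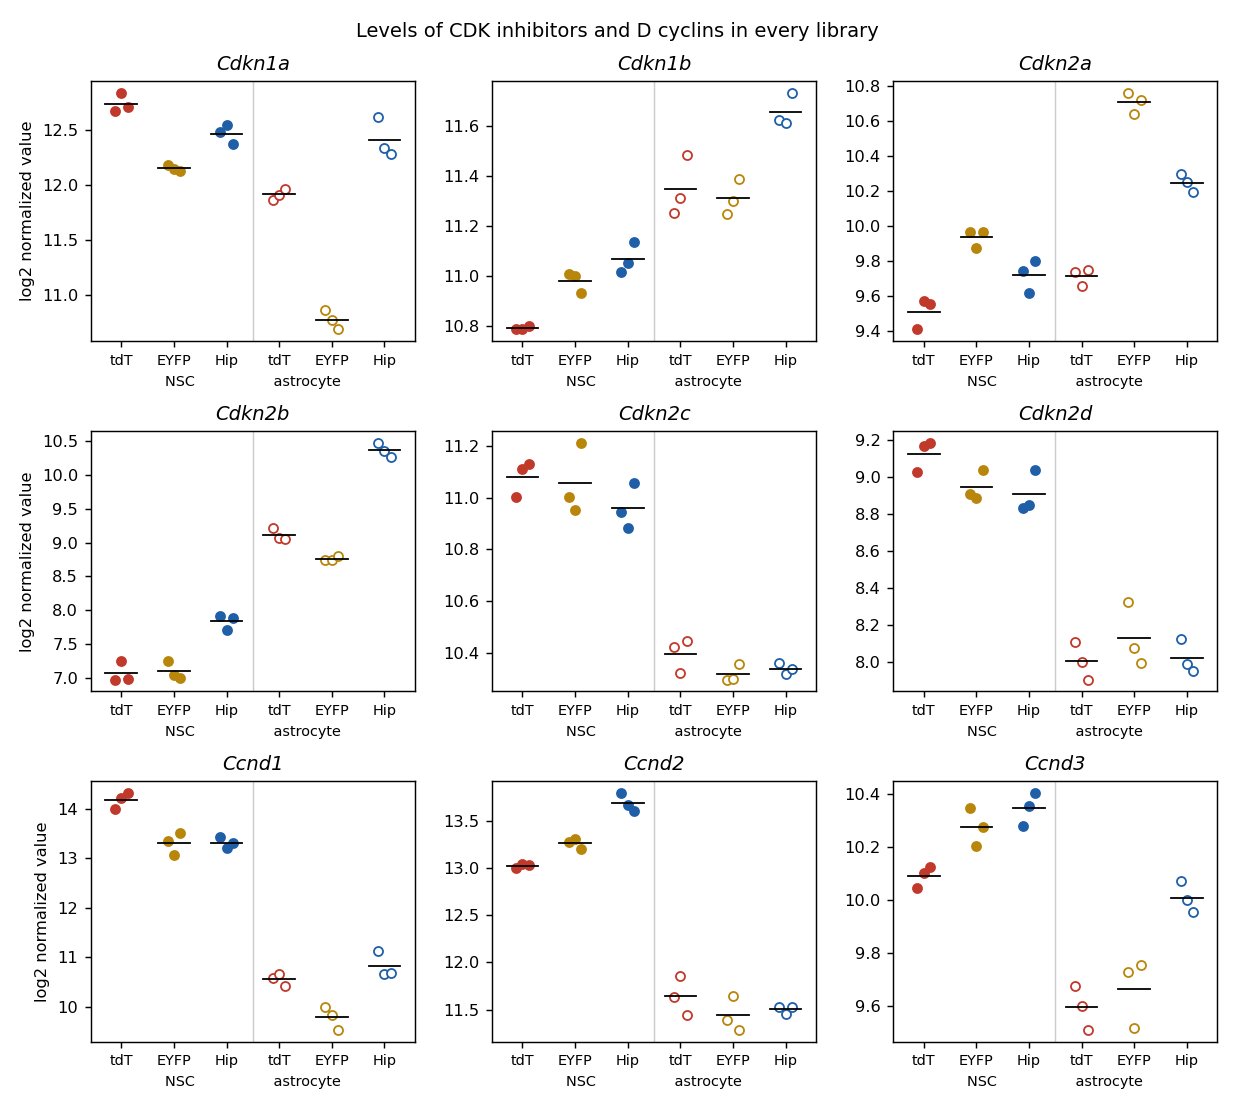
Deposited log2 value (y axis, own range in each panel) of the 9 genes in every library, by line, for NSCs (filled) and astrocytes (open), with the group mean as a line. Cdkn2b lies at 6.97 to 7.92 in NSCs and 8.74 to 10.48 in astrocytes, and Ccnd1 at 13.08 to 14.32 and 9.53 to 11.14. Cdkn1a falls in the traced lines while its hippocampal groups overlap.

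Cdkn2b, which encodes p15 and is known as a target of TGF-beta signalling, had the largest rise of the members. Its values in NSCs were 6.97, 7.24 and 6.98 in the tdTomato line, 7.25, 7.04 and 6.99 in the EYFP line and 7.92, 7.71 and 7.88 in the hippocampal line. In astrocytes they were 9.21, 9.07 and 9.05 in the tdTomato line, 8.74, 8.74 and 8.80 in the EYFP line and 10.48, 10.36 and 10.27 in the hippocampal line. All astrocyte libraries lay above all NSC libraries, and within each fate the hippocampal libraries lay above those of both traced lines. The rise was 2.04 (SE 0.09) in the tdTomato line, 1.67 (SE 0.09) in the EYFP line and 2.53 (SE 0.08) in the hippocampal line, or 4.12-, 3.17- and 5.79-fold, with adjusted p of 6.7e-08, 1.53e-07 and 1.71e-09 (limma). Hippocampal astrocytes had 2.39-fold more Cdkn2b RNA than tdTomato and 3.05-fold more than EYFP astrocytes.

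Cdkn2a lies next to Cdkn2b on chromosome 4 (GRCm38 chr4:89274471-89294653, minus strand, against chr4:89306299-89311039 for Cdkn2b). Its row sums the transcripts of p16INK4a and of Arf, a protein read in another frame that stabilizes p53, and these could not be separated here. Its values in NSCs were 9.41, 9.57 and 9.55 in the tdTomato line, 9.97, 9.87 and 9.97 in the EYFP line and 9.74, 9.62 and 9.80 in the hippocampal line. In astrocytes they were 9.74, 9.66 and 9.75 in the tdTomato line, 10.76, 10.64 and 10.72 in the EYFP line and 10.30, 10.25 and 10.19 in the hippocampal line. Astrocytes lay above NSCs of their own line in every line, yet the tdTomato astrocytes overlapped the hippocampal NSCs and lay below all EYFP NSCs. The rise was 0.20 (SE 0.06, adjusted p = 0.00952, limma) in the tdTomato line, 0.77 (SE 0.05) in the EYFP line and 0.53 (SE 0.06) in the hippocampal line. EYFP NSCs had 1.34-fold more Cdkn2a RNA than tdTomato NSCs, and EYFP astrocytes had 1.99-fold more Cdkn2a RNA than tdTomato astrocytes, a difference that only 2.59% of genes exceeded between these groups.

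The other INK4 genes went the opposite way. Cdkn2c, the gene of p18, had values of 10.88 to 11.21 in NSCs and 10.30 to 10.44 in astrocytes, with no overlap. It fell by 0.68, 0.74 and 0.62 in the tdTomato, EYFP and hippocampal line (SE 0.05, 0.07 and 0.05). Cdkn2d, which encodes p19INK4d, had values of 8.83 to 9.18 in NSCs and 7.90 to 8.32 in astrocytes and fell by 1.12, 0.81 and 0.89 (SE 0.08, 0.10 and 0.08). For both genes the 3 lines overlapped within each fate, and no difference between lines passed the threshold in either fate. The nearest to it was that of Cdkn2d between tdTomato and hippocampal NSCs (0.22, adjusted p = 0.0592, limma), which passed in a fit of only these libraries (adjusted p = 0.0331, limma) and without replicate 1 of the tdTomato or replicate 3 of the hippocampal NSCs. The 2 INK4 genes that rose, Cdkn2b and Cdkn2a (whose row includes Arf), and the 2 that fell were thus split in the same way in each line.

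Cdkn1b, the gene of p27, rose in every line. Its values were 10.79 to 11.14 in NSCs and 11.25 to 11.73 in astrocytes, without overlap. The rise was 0.56 (SE 0.06), 0.33 (SE 0.05) and 0.59 (SE 0.05) in the tdTomato, EYFP and hippocampal line, which is 1.47-, 1.26- and 1.5-fold. p27 is known to be controlled mainly through its degradation, which these values do not show.

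Cdkn1a, the gene of p21, was the member whose change depended most on the line. Its values in NSCs were 12.67, 12.84 and 12.70 in the tdTomato line, 12.18, 12.14 and 12.12 in the EYFP line and 12.48, 12.54 and 12.37 in the hippocampal line. In astrocytes they were 11.86, 11.91 and 11.96 in the tdTomato line, 10.86, 10.77 and 10.68 in the EYFP line and 12.61, 12.34 and 12.28 in the hippocampal line. In the traced lines all astrocytes lay below all NSCs of the same line, and EYFP astrocytes lay lowest of the 6 groups, whereas hippocampal astrocytes and NSCs overlapped. Cdkn1a fell by 0.83 (SE 0.05, adjusted p = 4.67e-07, limma) in the tdTomato line and by 1.37 (SE 0.05, adjusted p = 1.52e-08, limma) in the EYFP line. In the hippocampal line the difference was -0.05 (95% interval -0.24 to 0.13, adjusted p = 0.557, limma). The hippocampal value leaned on 1 library: without replicate 1 of the hippocampal astrocytes it was -0.16 (adjusted p = 0.0261, limma), and without replicate 3 it was 0.01. In all 6 such fits the value lay above those of the traced lines. Of the 75-base stretches of the Cdkn1a transcripts, 7.05% also occur in transcripts of other genes, and none of those of the other inhibitors do.

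The D cyclins fell in every line, each by a different amount. Ccnd1, the D cyclin most closely tied to growth factor signalling, fell furthest. Its values in NSCs were 14.01, 14.21 and 14.32 in the tdTomato line, 13.35, 13.08 and 13.52 in the EYFP line and 13.43, 13.21 and 13.32 in the hippocampal line. In astrocytes they were 10.57, 10.67 and 10.42 in the tdTomato line, 9.99, 9.84 and 9.53 in the EYFP line and 11.14, 10.66 and 10.67 in the hippocampal line. NSCs and astrocytes were far apart in each line, with tdTomato NSCs highest and EYFP astrocytes lowest. The fall was 3.63 (SE 0.09), 3.52 (SE 0.13) and 2.496 (SE 0.11) in the tdTomato, EYFP and hippocampal line, or 12.3-, 11.5- and 5.64-fold, with adjusted p of 1.19e-09, 1.06e-08 and 2.9e-08 (limma). Ccnd1 shares 1100 exon bases with LTO1 on the opposite strand, and 20.6% of its 75-base stretches also occur there. LTO1 rose, by 0.32, 0.40 and 0.95 in the same order, so the directions of the 2 genes were opposite.

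Ccnd2, which neural progenitors also use, fell in every line. Its values in NSCs were 13.00, 13.04 and 13.03 in the tdTomato line, 13.28, 13.31 and 13.20 in the EYFP line and 13.80, 13.67 and 13.61 in the hippocampal line. In astrocytes they were 11.64, 11.86 and 11.44 in the tdTomato line, 11.39, 11.64 and 11.29 in the EYFP line and 11.53, 11.46 and 11.52 in the hippocampal line. Hippocampal NSCs lay above the other NSCs, and the 3 astrocyte groups overlapped. The fall was 1.38 (SE 0.09), 1.82 (SE 0.08) and 2.19 (SE 0.05), or 2.6-, 3.54- and 4.55-fold. The antisense genes Gm43126 and 9330179D12Rik share 5.52% of its 75-base stretches.

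Ccnd3, the D cyclin most typical of differentiated tissues, fell least. Its values were 10.05 to 10.40 in NSCs and 9.51 to 10.07 in astrocytes. In each line its fates did not overlap, although the highest hippocampal astrocyte library reached into the range of the tdTomato NSCs. It fell by 0.49, 0.61 and 0.34 (SE 0.05, 0.07 and 0.05). Its neighbour Bysl on the opposite strand, with which it shares 361 exon bases, also fell, by 1.05 over all lines. Of its 75-base stretches, 3.54% also occur in other genes, Bysl and the pseudogene Ccnd3-ps among them. Every member passed the filter on low values in all comparisons. In bulk cultures such as these, fewer cells with a transcript and less of it per cell cannot be told apart.

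**Figure D2:**
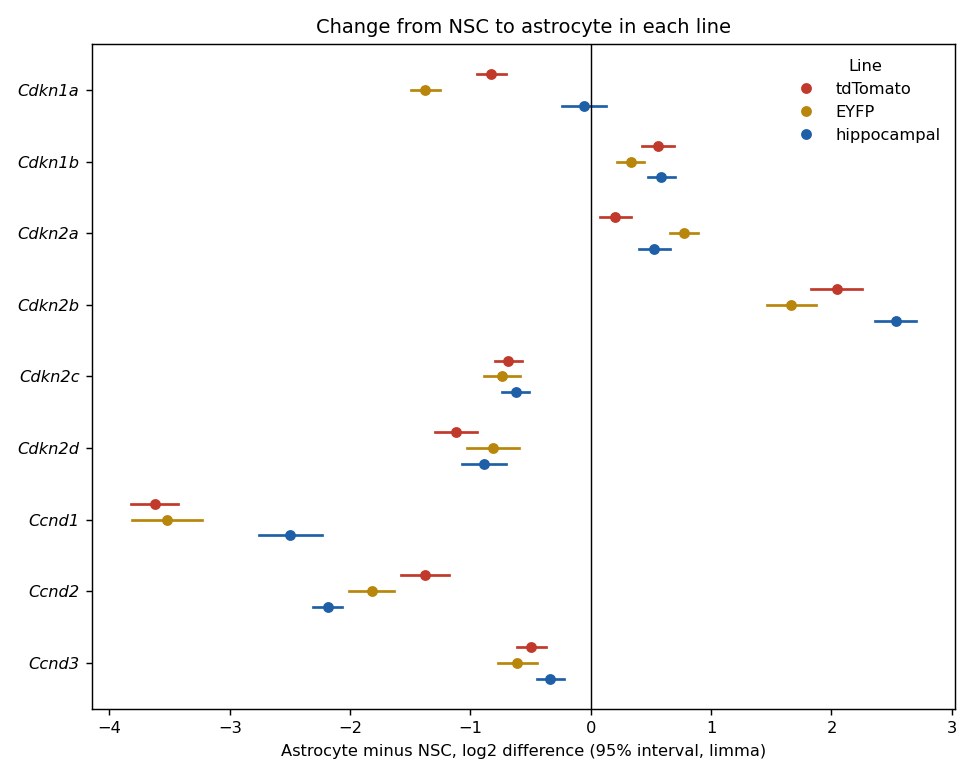
Difference between astrocytes and NSCs (log2 scale, x axis) of each of the 9 genes (y axis) in the tdTomato, EYFP and hippocampal line, with the 95% interval of limma, 3 against 3 libraries. Only the hippocampal interval of Cdkn1a (-0.24 to 0.13) spans 0.

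Differences between lines in the change itself were tested in a fit of all 18 libraries. Between the tdTomato and EYFP lines 3 of the 9 members differed, where 13.3% of all genes did. With median centring or quantile normalization 5 did, Cdkn1b and Cdkn2b with them, and without a variance trend or with only the libraries compared 2 did. Cdkn1a fell less in the tdTomato line, by 0.55 (95% interval 0.33 to 0.76, adjusted p = 0.0019, limma), and Cdkn2a rose less there (-0.57, interval -0.74 to -0.40, adjusted p = 0.000221, limma). The 2 inhibitors therefore differed between the traced lines in opposite ways, with the EYFP line showing the larger fall of Cdkn1a and the larger rise of Cdkn2a. Ccnd2 fell less in the tdTomato line (difference 0.44, adjusted p = 0.0256, limma), a call that was lost in 6 of the 12 fits without 1 of the libraries compared, without a variance trend and with only the libraries compared. For Ccnd1 the difference between the traced lines was -0.10 (interval -0.51 to 0.30).

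Between the tdTomato and hippocampal lines 5 members differed (45.3% of all genes), and between the EYFP and hippocampal lines 7 (38%). Of the genes that differed, 42.9% and 44.7% had the higher value in the traced line, against 56.6% and 55.1% with the libraries centred on their medians, so small differences of either sign rest on the scaling. The differences in the fall of Ccnd1 were -1.13 and -1.03 (SE 0.19 for each), so Ccnd1 fell further in both traced lines than in the hippocampal one. Those of Ccnd2 were 0.81 and 0.36, so Ccnd2 fell further in the hippocampal line. Cdkn2b rose less in the traced lines, by -0.49 (adjusted p = 0.00407, limma) and -0.87 (adjusted p = 3.13e-05, limma). For Cdkn1a the differences were -0.77 and -1.32, the second exceeded by 6.03% of genes.

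Cdkn2a rose less in the tdTomato than in the hippocampal line (-0.32, adjusted p = 0.00295, limma) and more in the EYFP line (0.24, adjusted p = 0.0219, limma). Cdkn1b rose less (-0.25) and Ccnd3 fell further (-0.27) in the EYFP than in the hippocampal line. These 2 differences, with those of Cdkn2a and Ccnd2 between the EYFP and hippocampal lines, had adjusted p between 0.0157 and 0.0284 (limma). With the libraries centred on their medians, the calls of Cdkn1b and Ccnd3 were lost. That of Ccnd3 was also lost with quantile normalization (adjusted p = 0.0503, limma). The call of Ccnd2 was lost without a filter (adjusted p = 0.053, limma) and without a variance trend. Those of Cdkn2a, Ccnd2 and Ccnd3 were each lost in 4 of the 12 fits without 1 library. Cdkn2c and Cdkn2d differed in no pair of lines, with 95% intervals of the 3 differences that ran from -0.30 to 0.23 for Cdkn2c and from -0.57 to 0.33 for Cdkn2d.

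The levels in NSCs differed between lines before any BMP4 was given. Between tdTomato and EYFP NSCs, 6 members differed (31.4% of all genes), between tdTomato and hippocampal NSCs 7 (37.2%) and between EYFP and hippocampal NSCs 4 (25.8%). Of the genes that differed between tdTomato and hippocampal NSCs, 53.4% were higher in tdTomato NSCs, and 43.2% with median centring. tdTomato NSCs had 1.83-fold more Ccnd1 RNA than EYFP NSCs and 1.82-fold more than hippocampal NSCs, while EYFP and hippocampal NSCs overlapped. Ccnd2 ran the other way, with 1.58-fold more in hippocampal than in tdTomato NSCs. Hippocampal NSCs also had more Cdkn2b, 1.71-fold against tdTomato and 1.67-fold against EYFP NSCs. Cdkn1a was highest in tdTomato NSCs and lowest in EYFP NSCs, 1.5-fold apart. The smaller differences of Ccnd2, Ccnd3 and Cdkn1b between tdTomato and EYFP NSCs were -0.24, -0.19 and -0.19. They lost their calls in 6, 5 and 2 of the 6 fits without 1 of these libraries.

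In astrocytes, 4 members differed between the traced lines (14.4% of all genes), 5 between tdTomato and hippocampal (58.2%) and 6 between EYFP and hippocampal astrocytes (51.6%). The traced lines differed most in Cdkn1a, 2.2-fold higher in tdTomato astrocytes, and in Cdkn2a, higher in EYFP astrocytes. Ccnd1 was 1.7-fold and Cdkn2b 1.27-fold higher in tdTomato than in EYFP astrocytes, but without replicate 1 of the tdTomato astrocytes the call of Cdkn2b was lost (adjusted p = 0.053, limma). EYFP astrocytes had 3.11-fold less Cdkn1a and 2.05-fold less Ccnd1 RNA than hippocampal astrocytes. Cdkn1b and Ccnd3 were higher in hippocampal astrocytes than in both traced lines, by 0.31 and 0.34 for Cdkn1b and 0.41 and 0.34 for Ccnd3 on the log2 scale. Ccnd2, which differed between each pair of NSC groups, passed the threshold in no pair of astrocyte groups, with differences of -0.06 to 0.21. The last of these, between tdTomato and EYFP astrocytes, was close in size to the NSC difference whose call was lost, and it passed in 2 of 6 fits, without replicate 3 of the tdTomato or replicate 2 of the EYFP astrocytes (lower adjusted p of the 2 = 0.0209, limma). The comparisons of 1 fate share groups and are not independent of each other.

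To compare members with each other, 2 to the power of the log2 value was divided by the length in kb of the merged exons, which ran from 1.172 kb for Cdkn2a to 9.409 kb for Ccnd2. On this scale the D cyclin RNA of NSCs was mostly Ccnd1: 79.6% ± 1.58 (SD, n = 3) of the sum of the D cyclins in tdTomato, 64.5% ± 4.14 (SD, n = 3) in EYFP and 58.3% ± 1.35 (SD, n = 3) in hippocampal NSCs. In astrocytes the share of Ccnd1 was 42.7% ± 0.899 (SD, n = 3), 32.6% ± 3.08 (SD, n = 3) and 47.5% ± 4.13 (SD, n = 3), and Ccnd2 held the largest share in both traced lines (45.5% and 51.2%), while Ccnd1 did in the hippocampal line. Ccnd3 went from 2.51%, 4.22% and 3.99% in NSCs to 11.8%, 16.2% and 14.5% in astrocytes, although its own level fell.

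Among the inhibitors, Cdkn1a held the largest share per length in NSCs, 45.9% ± 1.09 (SD, n = 3) in tdTomato, 34% ± 1.16 (SD, n = 3) in EYFP and 39.9% ± 2.79 (SD, n = 3) in hippocampal NSCs. It was also the largest in tdTomato and hippocampal astrocytes (31.5% and 31.4%), but EYFP astrocytes had 41.4% Cdkn2a and 14.3% Cdkn1a. The Cdkn2a row was counted whole, so its share, the inhibitor sum and the ratio below hold an unknown part of Arf RNA. Cdkn2b went from 2.3%, 2.62% and 4.12% to 11.6%, 9.06% and 19.5%, and in hippocampal astrocytes its share came after those of Cdkn1a and Cdkn2a. The sum of the inhibitors divided by that of the D cyclins was 0.847 ± 0.0551, 1.12 ± 0.0715 and 1.07 ± 0.0653 in NSCs and 4.62 ± 0.618, 5.99 ± 0.615 and 6.01 ± 0.288 in astrocytes (mean ± SD, n = 3). The inhibitor sum itself was lower in astrocytes than in NSCs of the traced lines, at 3357 to 3539.6 against 3991 to 4392 in the tdTomato and 3354 to 3522 against 3652 to 3847 in the EYFP line, and higher in the hippocampal line, at 4676 to 5218 against 3962 to 4043 (linear level per kb, lowest to highest of 3 libraries), without overlap in any line. The mean D cyclin sum was 3364 to 4972 in NSC and 579 to 816 in astrocyte groups, so that in the traced lines the higher ratio came with less of both. The highest NSC library had a ratio of 1.2 and the lowest astrocyte library 4.05. The shares depend on the length used: with the longest transcript in place of the merged exons, that of Ccnd1 was lower and that of Cdkn1a higher in every group.

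**Figure D3:**
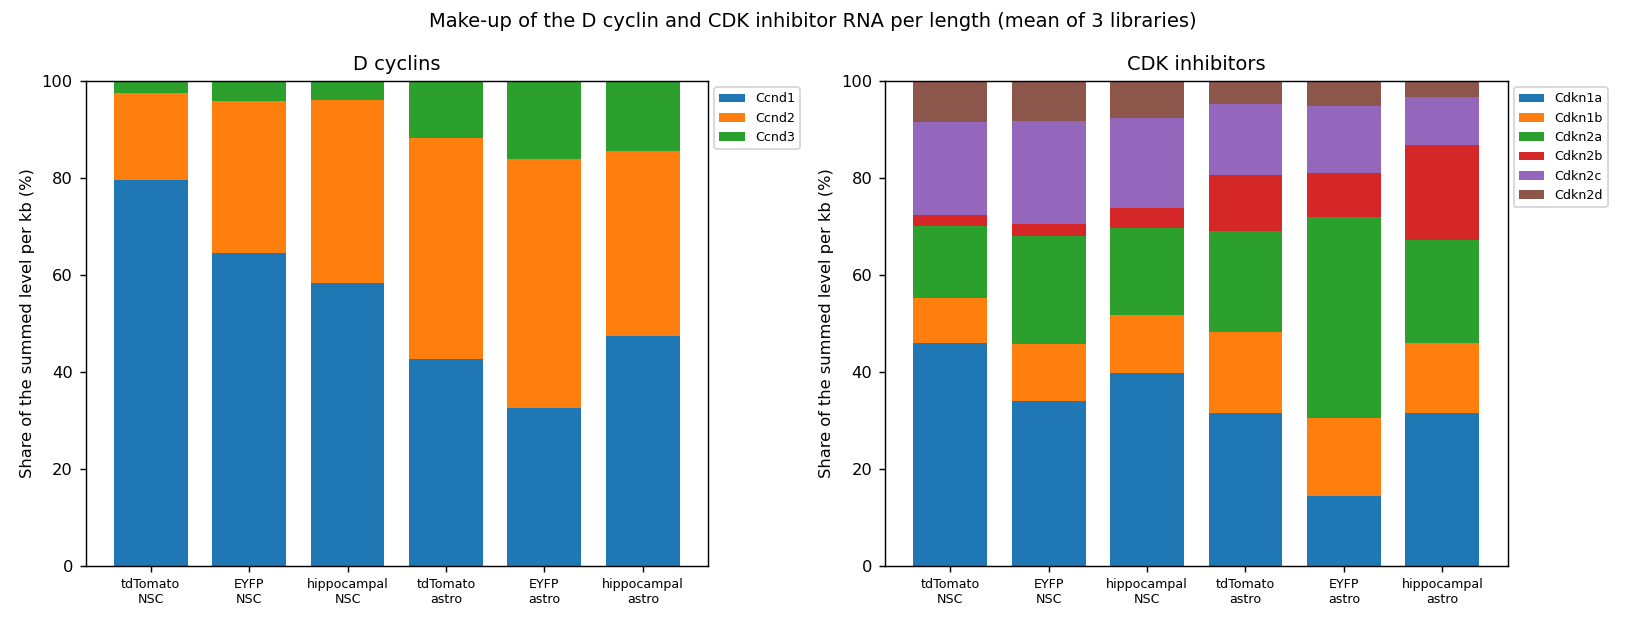
Share (%, y axis) of each gene in the summed level per kb of the 3 D cyclins (left) and the 6 CDK inhibitors (right), mean of 3 libraries in each line and fate. Ccnd1 takes 79.6% of the D cyclins in tdTomato NSCs and 32.6% in EYFP astrocytes. Cdkn2a, whose row includes Arf, takes 41.4% of the inhibitors in EYFP astrocytes.

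The partners and targets of the members were described from lists of pathway genes, by the comparison with the line as covariate, to be read against its 42.1% of genes up and 39.8% down. Kinases and cyclins of G1 and S phase fell in 6 of 6 cases (median -2.38), among them Cdk4 (-1.35) and Cdk6 (-2.82), the partners of the D cyclins, Ccne1 (-2.90) and Ccna2 (-5.25). Mitotic cyclins with their kinase fell in 4 of 4, led by Ccnb1 (-5.29) and Ccnb2 (-4.85). Of 10 E2F and DP factors 10 fell (median -1.08), led by E2f8 (-5.37), E2f2 (-4.91) and E2f7 (-4.74), and of 10 proliferation genes 10 fell, Mki67 most (-6.21). The pocket proteins, the substrates of Cdk4 and Cdk6, divided: Rb1 (0.997) and Rbl2 (0.79), typical of resting cells, rose, and Rbl1 (-1.94), itself an E2F target, fell. The median of all genes was 0.02. Each of these genes moved the same way in each line.

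The remaining CDK inhibitors fell: Cdkn1c, the gene of p57, by 2.13 and Cdkn3, a phosphatase gene, by 3.45. The CDK activators fell in 4 of 6 cases, led by the phosphatase genes Cdc25c (-5.04), Cdc25b (-1.64) and Cdc25a (-1.62), and Cdk7 (0.01) and Ccnh (0.08) did not pass. Ccnh, the cyclin of Cdk7, rose in the tdTomato (0.17) and EYFP line (0.18) and had -0.10 in the hippocampal line (adjusted p = 0.0964, limma). Of 7 DREAM and MuvB genes, which hold cell cycle promoters in check or open them, 5 fell, led by Mybl2 (-3.73), Foxm1 (-2.96) and Lin9 (-1.34), and Lin52 rose (0.33). Of 10 genes for the turnover of p27 and cyclins 8 fell and 2 rose. Among those that fell were Skp2 (-2.27) and Cks1b (-2.21), whose products mark p27 for destruction, and Cdc20 (-3.97). Skp1a (0.65) and Fbxo4 (0.52) rose.

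Of the BMP targets, 8 of 8 rose in every line, led by Atoh8 (4.92), Id4 (4.33) and Smad6 (3.55). Of 9 regulators of the INK4 locus, 7 fell and 2 rose: Ezh2, the methyltransferase of Polycomb complex PRC2, fell (-2.15), as did Ets1 (-1.13), while the PRC1 member Cbx7 (1.71) and Ets2 (0.65) rose. Of 5 neighbours of Cdkn2a and Cdkn2b, Elavl2 (-1.25) and Mtap (-0.95) fell, in each line too. Hacd4 rose over all lines (1.07) and in the hippocampal line (1.54), but was under the filter in each traced line fitted alone. Of the mitogen targets, 10 of 11 fell and none rose, led by Dusp6 (-4.41), Spry4 (-3.94) and Etv1 (-2.44), and Mycn had 0.13. Of 8 FoxO factors and targets 3 rose and 4 fell, with Foxo6 (-1.82), Klf4 (-1.24) and Foxo3 (0.94) leading. FoxO factors are known regulators of Cdkn1b. The part of the genes of these lists in the changes of the members was not tested.

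Around Cdkn1a, 9 of 12 members of the list of p53 and its targets fell and 3 rose (median -0.31). Sesn1 (1.12), Gadd45a (0.83) and Phlda3 (0.53) rose, and Trp53 itself fell (-0.998). In the tdTomato, EYFP and hippocampal line, 7, 9 and 7 of the 12 fell. Trp53 fell by 1.29, 1.09 and 0.61, and its fall differed from the hippocampal one by -0.69 in the tdTomato line (adjusted p = 1.51e-05, limma) and -0.49 in the EYFP line (adjusted p = 0.000568, limma). These 2 comparisons share the hippocampal libraries. Between the traced lines, where Cdkn1a fell further in the EYFP line, Trp53 had the larger fall in the tdTomato line, with a difference of -0.20 (adjusted p = 0.18, limma), and of the whole list 2 had the higher and 1 the lower change in the tdTomato line. In levels, 8 of the 12 were higher in tdTomato than in EYFP astrocytes and none lower (median 0.38, 14.4% of all genes called), and 8 were higher and 1 lower in tdTomato than in EYFP NSCs (median 0.34, 31.4%). Between EYFP and hippocampal astrocytes 9 were lower and none higher (median -0.43, 51.6%). For the NSCs of these lines, 6 were lower and 1 higher (median -0.13, 25.8%). In tdTomato against hippocampal astrocytes 2 were higher and 4 lower (median -0.14, 58.2%), and in the NSCs of this pair 6 were higher and 1 lower (median 0.07, 37.2%). Cdkn1a, which is not in that list, was higher in tdTomato than in EYFP cells of both fates and lower in EYFP than in hippocampal cells. Against hippocampal cells of the same fate, it was higher in tdTomato NSCs (0.27) and lower in tdTomato astrocytes (-0.50). The part of p53 in the changes and levels of Cdkn1a was not tested.

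**Figure D4:**
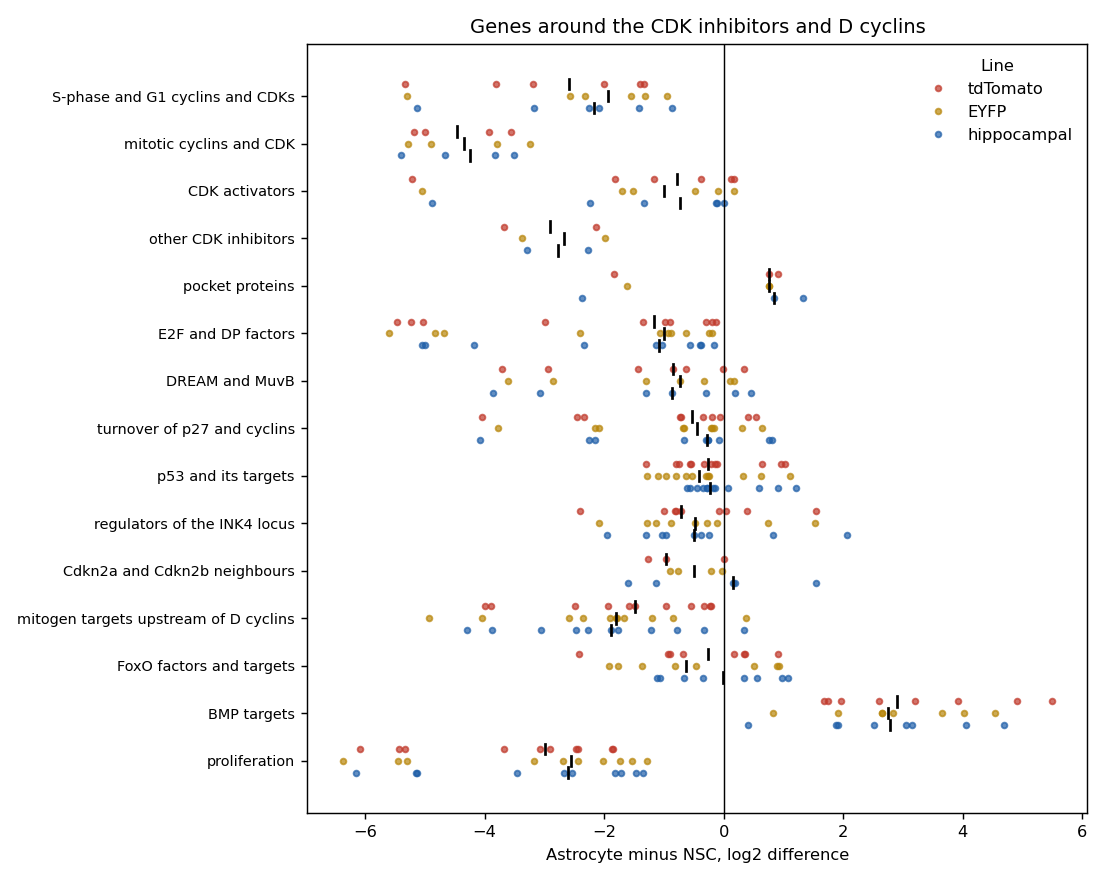
Difference between astrocytes and NSCs (log2 scale, x axis) of the genes of each pathway list (y axis) in the tdTomato, EYFP and hippocampal line, as 1 point per gene that passed the filter, with the median of each line as a bar. BMP targets lie right of 0 in all lines, and the cyclin, E2F and proliferation lists lie left of 0.

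Markers of other cell types moved with the fates. The ependymal list rose in 3 of the 3 genes tested, of 4 listed (Foxj1 1.45, Rsph1 2.22 and Dnah5 3.15), and its summed linear level was 698 to 1446 in NSC and 2073 to 5095 in astrocyte libraries. The oligodendrocyte lineage list, over the 6 genes used here, summed to 20840 to 25831 and 4390 to 8475. Olig2 (-2.01), Cspg4 (-1.49) and Pdgfra (-0.73) fell, and Sox10 and Mog stayed under the filter. Mbp, a myelin gene, did not pass over all lines (0.07) but rose in the hippocampal line (1.65), where its mean in astrocytes was 4.01. Neuronal markers (6 genes) summed to 155 to 285 and 345 to 470, and endothelial markers (3 of 4 found) to 22.8 to 36 and 11.2 to 17.9. None of the 4 microglia and leukocyte markers found passed the filter, and their sum was 2.2 to 3.6 in NSCs and 2.2 to 4.2 in astrocytes. The part of such cells in the changes of the 9 members was not tested.

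Some genes followed the members closely over the 18 libraries. Likeness was taken as Pearson's r with each of 13262 genes, which share the libraries and their 2 fates, so high values are common and are given as a description. Nearest to Cdkn2b were Ifi27 (r = 0.993) and Zic5 (0.99), to Cdkn1a Slc19a2 (0.966) and Rnf113a2 (0.96), and to Cdkn2a Fbxo10 (0.939) and Cln3 (0.937). Cdkn1b was closest to Peli2 (0.979) and Ntrk2 (0.977), Cdkn2c to Asf1b (0.989) and Banf1 (0.989), and Cdkn2d to Pelp1 (0.99) and L3mbtl2 (0.989). Among the D cyclins, Ccnd1 was closest to Gtse1 (0.992) and Pa2g4 (0.992), Ccnd2 to Fam120a (0.99) and Hhip (0.985), and Ccnd3 to Cdc42se1 (0.976) and Kcnmb4 (0.975). By Spearman's rho only 2 of these 18 neighbours were again among the 2 nearest.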

How the data were processed

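RNA sequencing had been done on 18 libraries, 3 per line and fate. Per the labels, the authors used Trimmomatic (version 0.36), STAR (2.5.2), RSEM (1.3.0) and DESeq2 (1.18.1) with GRCm38, and the methods of the study name STAR with RSEM for alignment and gene counts and DESeq2 for normalization. The authors deposited log2 values whose transform is not named in the sources used here. Of all values 29.4% are negative, no counts were used, and no counting error could be given. The labels state at least 25 M single-end reads of 76 bases per library, and the exact depth of each library is not known here. The methods of the study give another RSEM version, read length and library kit.

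The values were tested as deposited with limma (3.58.1, R 4.3.3) with a variance trend, after a filter of 10 on the linear scale (log2 3.32) in at least 3 of the libraries compared, and the code was tested on simulated data. Each line was fitted alone, all lines with the line as covariate, and differences between lines over 6 group means. Gene models were GENCODE M21. The alternatives changed the pseudocount (1 or 10), the filter (none, or 100), the scaling (medians or quantiles), the variance trend, the libraries in the fit, the transcript length and the correlation, added a replicate block, or left out 1 library at a time. No measured value decides which genes are members, but this set of genes and the lists were chosen with earlier results of these data known. The genes named were the members, the 3 largest changes of each list, Mki67, Cdk4, Cdk6, Rb1, Cdkn1c, Huwe1, Gfap, Nes and the 2 genes most like each member. Genes named to complete a count of 5 or fewer, and overlapping genes, were chosen after their values were seen. Protein sequences were not used here, and 1 gene of the oligodendrocyte lineage list is not reported here and was left out of its sum.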

Additional observations from a re-analysis of the deposited data

Results flagged for a closer look

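The results below are differences between 2 lines in the change from NSC to astrocyte that passed the threshold in a test of the difference itself (limma, Benjamini-Hochberg over 15448 genes, 3 libraries per group). Each is given as first line minus second line on the log2 scale, and comparisons that name the same line share its libraries. Cdkn1a differed in all 3 pairs, by 0.55 between the tdTomato and EYFP lines, -0.77 between the tdTomato and hippocampal lines and -1.32 between the EYFP and hippocampal lines. Cdkn2a also differed in all 3, by -0.57, -0.32 and 0.24 in the same order, the last lost in 4 of 12 fits without 1 library. So did Ccnd2, by 0.44, 0.81 and 0.36, of which the first was lost in 6 and the third in 4 of 12 fits without 1 library, and both without a variance trend. The first was also lost with only the libraries compared, and the third without a filter. Against the hippocampal line, Cdkn2b differed by -0.49 in the tdTomato and -0.87 in the EYFP line, and Ccnd1 by -1.13 and -1.03. Cdkn1b and Ccnd3 differed between the EYFP and hippocampal lines, by -0.25 and -0.27, calls that were lost with median centring (adjusted p = 0.0552 for each, limma), when Cdkn1b passed between the traced lines instead (0.25, adjusted p = 0.0397, limma). That of Ccnd3 was also lost with quantile normalization and in 4 of 12 fits without 1 library. No cause of these differences was tested.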

How the results depend on the processing

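Under settings other than leaving out a library, all 324 recomputed results for the change between fates kept their direction and call, as did 322 of 324 without 1 library. The range for Cdkn1a in the hippocampal line was -0.16 to 0.0092 without 1 library, passing the threshold only without replicate 1 of the astrocytes. Between the tdTomato and EYFP lines, 2 members changed by a higher value, but 4 with median centring or quantile normalization, 1 without a variance trend or with only the libraries compared, and 1 to 3 without 1 library (1 without replicate 3 of the tdTomato NSCs, replicate 1 or 2 of the EYFP NSCs, replicate 2 of the tdTomato astrocytes or replicate 1 of the EYFP astrocytes). The count over all genes there, 2060, was 1317 to 2493, lowest without replicate 3 of the tdTomato NSCs. Between the EYFP and hippocampal lines, 2 members were higher, but 1 without a filter or a trend and 1 to 2 without 1 library, and 5 were lower, but 3 with median centring. In NSCs, 4 members were lower in the tdTomato than in the EYFP line, but 2 without a filter and 1 to 2 without any 1 library. EYFP against hippocampal NSCs had 0 to 1 member higher (0 without replicate 2 of the hippocampal NSCs, when Cdkn2a was lost), and tdTomato against hippocampal astrocytes 0 to 1 (1 without replicate 3 of the tdTomato astrocytes, Ccnd2).

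Results near 0 turned direction without passing the threshold, and the cause was not tested. With median centring and quantile normalization, the difference in change between the tdTomato and hippocampal lines became 0.058 and 0.010 for Cdkn1b and 0.025 and 0.0059 for Cdkn2c, that of Cdkn2d between their astrocytes 0.031 and 0.028, and that of Cdkn2c between EYFP and hippocampal astrocytes 0.018 and 0.014. Without 1 library, the ranges were -0.024 to 0.11 for Cdkn2c and -0.23 to 0.017 for Ccnd1 in the difference in change between the tdTomato and EYFP lines, -0.097 to 0.021 for Cdkn1b in the difference in change between the tdTomato and hippocampal lines, -0.026 to 0.14 for Cdkn2d in the difference in change between the EYFP and hippocampal lines, -0.12 to 0.048 for Cdkn2b and -0.026 to 0.10 for Cdkn2c in the difference between tdTomato and EYFP NSCs, -0.0087 to 0.10 for Cdkn2d and -0.11 to 0.11 for Ccnd1 in the difference between EYFP and hippocampal NSCs, -0.031 to 0.087 for Cdkn1b in the difference between tdTomato and EYFP astrocytes, -0.068 to 0.034 for Cdkn2d in the difference between tdTomato and hippocampal astrocytes, -0.16 to 0.013 for Ccnd2 in the difference between EYFP and hippocampal astrocytes.

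The calls of Cdkn1b and Cdkn2b between the changes of the traced lines, which missed the threshold, passed with both scalings and in 2 of 12 fits each without 1 library, and that of Cdkn2b also with the filter at 100 (adjusted p = 0.0493, limma). With the longest transcript, the share of Ccnd1 was 75.6%, 59.2% and 53.001% in tdTomato, EYFP and hippocampal NSCs and 36.3%, 26.7% and 40.1% in astrocytes, and that of Cdkn1a 56.1%, 43.4% and 49.96% and 41.3%, 19.6% and 41.3%. Of the 18 nearest genes, 2 were shared by Spearman's rho. Deviations from the group means of same-numbered libraries of 1 fate in different lines correlated by 0.106 on average (0.012 to 0.313, over 0.1 in 9 of 18 pairs), against -0.053 in 36 pairs of different number, and those of 1 line in both fates by -0.023 (9 pairs). Which number is which passage is not stated in the sources used here, and the numbers were not taken as pairs, since not every pair was over 0.1. With the replicate number as a block, 116 of 117 calls on members were the same. The difference in change of Cdkn1b between the traced lines, 0.23, then passed. Each library's own depth is not known here, and with 3 libraries per group some small differences between lines depend on single libraries, among them some of Cdkn2a, Ccnd2 and Ccnd3, whereas those of Ccnd3 between traced and hippocampal astrocytes and of Ccnd2 between tdTomato and hippocampal NSCs kept their calls without any 1 library.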
